A study of Mus musculus with 12 samples.

Results

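The nuclear genes of oxidative phosphorylation were taken from the deposited table by symbol, as the numbered subunit genes whose names begin with Ndufa, Ndufb, Ndufc, Ndufs or Ndufv (complex I), Sdh (complex II), Uqcr (complex III), Cox4 to Cox8 (complex IV) and Atp5 (ATP synthase, complex V). This rule found 80 of 15217 genes, with 36 in complex I, 4 in complex II, 8 in complex III, 15 in complex IV and 17 in complex V. Of these, 76 passed the filter on low counts and 73 had enough counts for a comparison of the share of newly made RNA. The symbols are not a perfect guide to the complexes. Atp5s and Atp5sl were counted with complex V by name, although their proteins are not structural subunits of ATP synthase, Ndufa4 is now assigned to complex IV, and subunit genes such as Cyc1 and Ndufab1 fall outside the pattern and were described separately.

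The cells were NIH-3T3, an established line of mouse fibroblasts labelled as wild type, grown in DMEM with newborn calf serum. For 2 h they were left without label or given 4-thiouridine (4sU) at 200 µM or at 800 µM. 4sU is a uridine analogue that enters RNA made during labelling, and in SLAM-seq iodoacetamide alters it so that sequencing reads it as C in place of T. This chemistry was run on isolated RNA in tubes (the tube groups) or inside methanol-fixed cells (the fixed groups), at a different temperature and for a different time in each. The 6 groups had 2 libraries apiece, named A and B, and library totals ran from 3629634 to 7762635 counts. No label states whether A and B came from different cultures. The p-values therefore reflect the spread between these libraries alone, and that spread may be technical.

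Fibroblast markers were found in every library, with a summed level of 17960 to 24830 CPM (counts scaled to a common library size) over 12 genes. The highest were S100a4, at 6353 to 14010 CPM, and Vim, at 2758 to 6560, and the lowest was Pdgfrb, at 17.11 to 35.26. The 10 genes marking other cell types in the table summed to 9.91 to 23.8 CPM. Fixed 800 µM library A stood apart from the rest, with the lowest normalisation factor (0.835) and the lowest median ratio over all genes (25.95%, against 32.08% to 42.31% in the other labelled libraries). For the tests at 800 µM in fixed cells, values without it stand beside the main ones, except for the difference between dose steps. The median differences in counts, the dose-step medians and the counts of genes without overlap include it and are given only with it. Where a fit leaves out 1 library, its group keeps 1 library, which is assumed to vary as the other groups do. As these are bulk libraries, fewer cells with a transcript and less of that transcript per cell cannot be told apart.

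Oxidative phosphorylation passes electrons from NADH and succinate through complexes I, II, III and IV to oxygen, and complex V uses the proton gradient this builds to make ATP. Apart from complex II, each complex joins subunits encoded by mitochondrial DNA to many more encoded in the nucleus, so their supply is divided between genomes. The nuclear genes are widely expressed housekeeping genes. Nuclear respiratory factor 1 (NRF1), GABP (an Ets family factor) and YY1 are known regulators of many of them.

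Because these regulators are known, the promoters were searched for short core motifs, on both strands, in windows from 250 bases before to 50 bases after the RefSeq start (build GRCm38.p6). A window was held for 67 of the 80 genes. The NRF1 core GCATGCGC occurred in 10 of them (14.9%), against 3.0% of all 27025 genes with a window and 5.6% of the 11166 genes of the deposited table with one. The YY1 core AAGATGGCG occurred in 8 (11.9%, against 1.6% and 3.2%), the Ets core CCGGAAGT in 5 (7.5%, against 4.3% and 8.2%) and TATAAA in 5 (7.5%, against 15.7% and 9.7%). GCATGCGC can overlap its own reverse complement, GCGCATGC, and such overlaps were counted once per promoter. The NRF1 core was in the windows of Ndufa6, Ndufa8, Ndufa11, Sdhb, Uqcr11, Uqcrc1, Cox6a1, Atp5g2, Atp5k and Atp5l. The stretches around it in Ndufa6 and Cox6a1, whose read counts rose in comparisons below, and in Ndufa11 are shown as examples that lie wholly upstream of the annotated gene, with the bases matched on either strand in capitals. They are printed on each gene's own strand, which is minus for Ndufa6 (chr15:82354342-82354399) and Cox6a1 (chr5:115349086-115349145) and plus for Ndufa11 (chr17:56717677-56717736).
Ndufa6: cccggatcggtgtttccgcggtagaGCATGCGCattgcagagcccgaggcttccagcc
Cox6a1: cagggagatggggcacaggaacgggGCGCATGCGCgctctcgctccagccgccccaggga
Ndufa11: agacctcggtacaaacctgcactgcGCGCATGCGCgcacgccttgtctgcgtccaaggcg
In Ndufa6 the core was matched on one strand only, 75 bases before the start, while in Cox6a1 and Ndufa11 matches on both strands overlapped in a stretch of 10 bases, 152 and 50 bases before it. A match is a description of letters and not evidence of binding, and a link between the motif and read counts was not tested.

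The first question was which of these genes the fibroblasts expressed, and at what level. Levels between genes were compared as CPM per kilobase of the deposited gene length, in the 4 libraries without 4sU and among the 76 genes that passed the filter. The order was headed by Atp5g3, which encodes the proton-carrying c subunit of ATP synthase, at 979.4 ± 28.0 in tubes and 2025 ± 42.0 in fixed cells (SD, n = 2 each). In complex IV, Cox4i1, the regulatory subunit 4, was highest with 713.6 ± 19.6 and 1386 ± 106 (SD, n = 2 each), and Cox5a was lowest at a mean of 133.7 over the 4 libraries. Cox4i1 and Cox8a, the next in the order (means 1050 and 1023), did not differ beyond the gap between their libraries. In complex III the small hinge protein Uqcrh led at 656.9 and the core protein Uqcrc2 was lowest at 42.7. In complex I the accessory subunit Ndufa2 led at 562.8 and Ndufb7 was lowest at 18.7. In complex II the iron-sulfur subunit Sdhb led at 194.5 and the membrane anchor Sdhc was lowest at 15.7. Atp5s, at 1.28, had the lowest level per kilobase of the 76 genes that passed the filter.

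These levels depend on the length each gene was given. The deposited length was over 2 times that of the principal GENCODE M21 transcript for 10 of the 80 genes. With the principal transcript in its place, Ndufb7 moved from rank 72 to 48 of 76, Atp5l, the g subunit of ATP synthase, from 71 to 26, and Cox6c from 24 to 7, while Atp5g3 stayed at rank 1. Cox5a moved from 39 to 18, which left Cox7b as the lowest tested gene of complex IV, and Ndufb2 became the lowest of complex I. Cox7c (rank 3) then stood above Cox4i1 (rank 4) in complex IV, and Ndufb8 (rank 9) above Ndufa2 (rank 13) in complex I.

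Several subunits of complexes IV and V exist in alternative forms made from separate genes, and the fibroblasts showed the widely expressed forms. Cox4i2, Cox6a2, Cox6b2 and Cox7a1, the forms known from lung, from heart and skeletal muscle, from testis, and again from muscle, did not pass the filter on low counts. Over all 12 libraries they had 1, 21, 2 and 18 counts in total. Their widely expressed counterparts Cox4i1, Cox6a1, Cox6b1 and Cox7a2 stood at 1050, 783.6, 610.5 and 626.6 CPM per kilobase without 4sU. Cox7a2l, which resembles Cox7a2 and acts in the joining of complexes III and IV into supercomplexes, stood at 206.1, and the sole form of the 7b subunit in the table, Cox7b, at 189.8.

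The c subunit of ATP synthase is encoded by Atp5g1, Atp5g2 and Atp5g3, whose mature proteins are the same and whose import sequences differ. Without 4sU, Atp5g3 made up most of the summed level of the 3 genes, at a mean of 1502 CPM per kilobase, ahead of Atp5g2 at 183.7 and Atp5g1 at 71.4. The order was the same in tubes (979.4, 130.7 and 43.6) and in fixed cells (2025, 236.7 and 99.2). The length used was 4715 bases for Atp5g1 and 753 for Atp5g2. Without division by length, Atp5g1 (336.6 CPM) stood above Atp5g2 (138.3), and Atp5g3 stayed highest (1295). Reads of such close copies may be shared, and the rule by which the authors divided them is not known here. Atp5g1, Atp5l, Cox6a1 and Cox8a had counts that were not whole numbers in all 12 libraries, and 72 of the 80 genes had them in at least 1.

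The next question was how much of each transcript was newly made. The deposited ratio gives the newly made part of a gene's RNA after 2 h of 4sU, and is printed here in percent. Genes of oxidative phosphorylation had low ratios in each of the 8 labelled libraries. Their median was 13.6% and 14.71% in tubes at 200 µM, 12.65% and 13.54% in tubes at 800 µM, 11.57% and 10.24% in fixed cells at 200 µM, and 8.24% and 10.31% in fixed cells at 800 µM. Over all 5538 genes with enough counts, the library medians ran from 25.95% to 42.31%. No gene of the 73 exceeded the all-gene median of a library except Ndufb7, which did so in fixed 800 µM library A (26.96% against 25.95%). The mean over the 8 libraries was below 10% for 22 genes, from 10% to 20% for 47, and above 20% for 4.

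**Figure D1:**
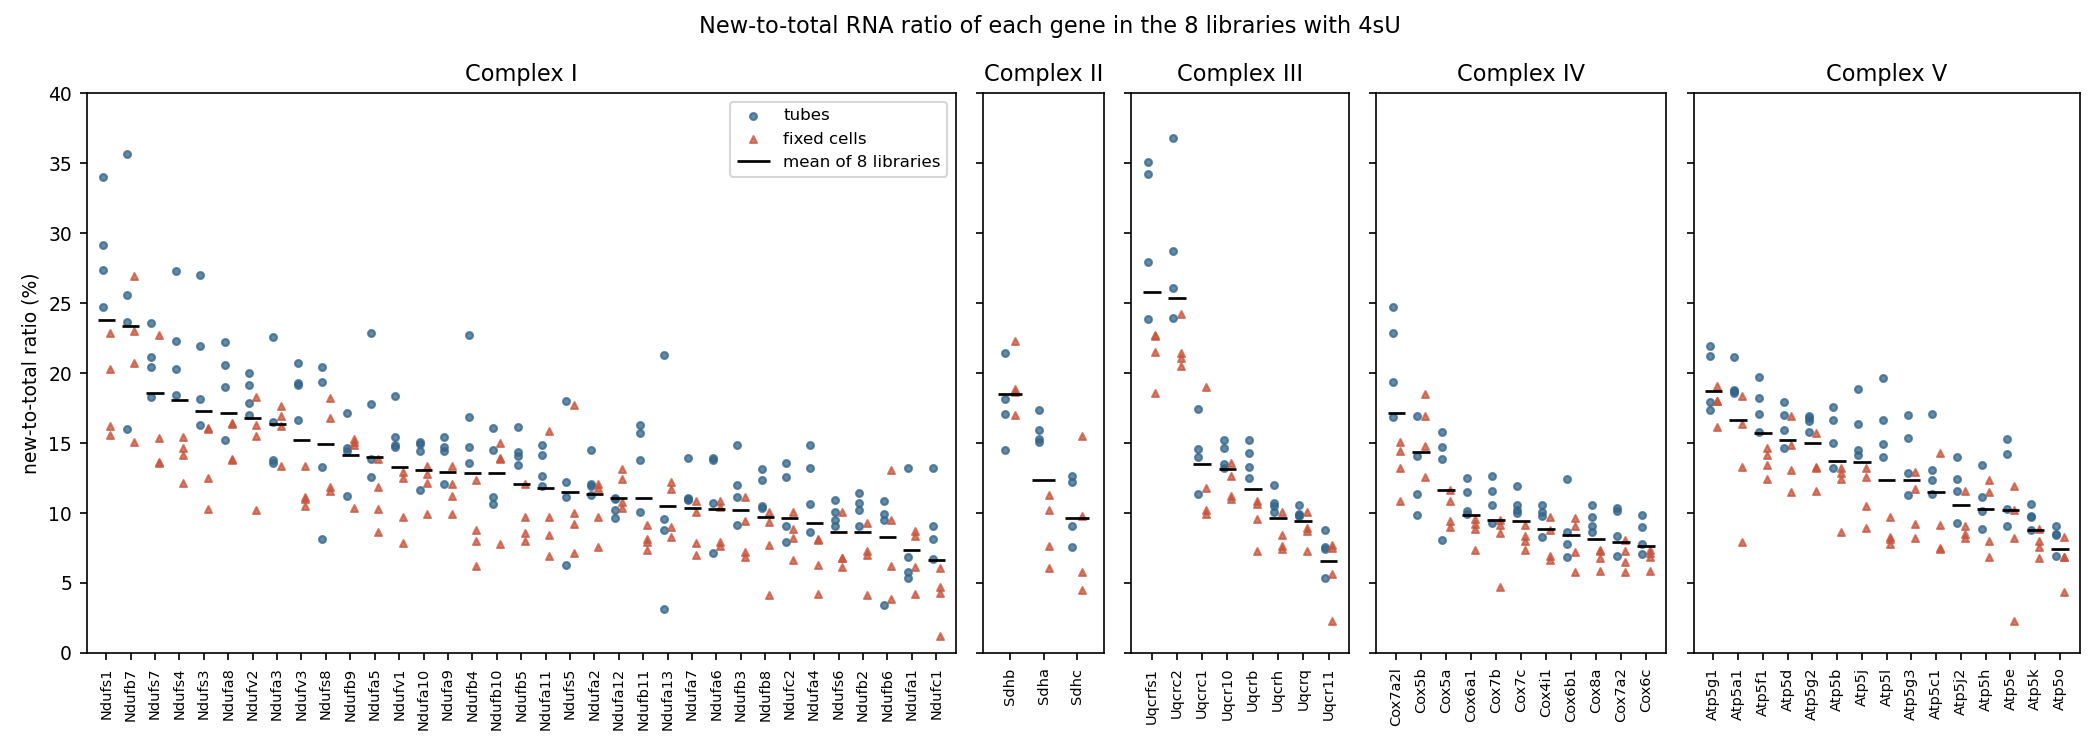
New-to-total RNA ratio in percent (vertical axis) of the genes with enough counts, by complex, 1 gene not shown; circles are the 4 tube libraries, triangles the 4 libraries of fixed cells and bars the mean of the 8. Most genes lie between 5% and 20%, Uqcrfs1, Uqcrc2, Ndufs1 and Ndufb7 have means above 20%, and complex IV is the lowest set.

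By complex, the mean of the library medians was 9.38% ± 1.37 for complex IV (SD over 8 libraries, 11 genes), 12.04% ± 1.89 for complex III (8 genes), 12.41% ± 1.88 for complex I (36 genes), 13.24% ± 2.74 for complex V (15 genes) and 13.28% ± 3.78 for complex II (3 genes). These SDs include the differences between doses and procedures. Complexes I, II, III and V lay within 1 SD of each other, and complex IV had a lower median than complex I in each of the 8 libraries. Complex IV also had the shortest genes, with a median length of 765 bases. That of complexes I, II, III and V was 1014.5, 2900, 1082 and 1697. Within complex I, the 7 nuclear core subunits, which carry the electrons, had a mean of library medians of 16.82% ± 2.79, against 11.24% ± 1.85 for the 29 accessory subunits, and the core subunits had the higher median in each library. The core genes were also longer (median 1540 against 908 bases). Across the 73 genes, Spearman's rho between mean ratio and deposited length was 0.377, and across all 5538 genes 0.394. Genes are not independent replicates and share the libraries, so these are descriptions.

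Means above 20% were those of Uqcrfs1, Uqcrc2, Ndufs1 and Ndufb7. Uqcrfs1, the Rieske iron-sulfur protein of complex III (chr13:30540308-30545362, GRCm38), had ratios of 34.21% and 35.07% in tubes at 200 µM, 23.88% and 27.97% in tubes at 800 µM, 22.67% and 21.49% in fixed cells at 200 µM, and 18.57% and 22.72% in fixed cells at 800 µM. Its tube values all exceeded its values in fixed cells. Uqcrc2 had a mean of 25.4% ± 5.39 (SD, n = 8 libraries), and Ndufs1, the largest core subunit of complex I, 23.8% ± 6.38. Ndufs1 was ordered from 34.06% and 29.14% (tubes, 200 µM) through 27.36% and 24.76% (tubes, 800 µM) and 22.90% and 20.29% (fixed, 200 µM) to 15.61% and 16.24% (fixed, 800 µM), with no overlap between these groups. In the other complexes the highest means were 18.5% ± 2.48 for Sdhb, 17.2% ± 4.82 for Cox7a2l and 18.7% ± 1.97 for Atp5g1.

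The lowest mean was that of Uqcr11. This gene, for a small subunit of complex III (chr10:80402997-80406830), had ratios of 7.43% and 8.79% in tubes at 200 µM, 7.56% and 5.35% in tubes at 800 µM, 7.51% and 7.74% in fixed cells at 200 µM, and 2.3% and 5.64% in fixed cells at 800 µM. Its groups overlapped, except that the fixed 800 µM values lay below those of both groups at 200 µM. Ndufc1, an accessory subunit of complex I, had a mean of 6.67% ± 3.59, Cox6c 7.63% ± 1.25, Sdhc 9.64% ± 3.70 and Atp5o, the stalk subunit known as OSCP, 7.42% ± 1.51 (SD, n = 8 libraries each). The deposited posterior intervals (0.05 to 0.95 quantiles) had a median width of 3.11 percentage points for Uqcr11 and 7.91 for Uqcrfs1, so these genes were separated by more than that width. The mean ratios of the c subunit genes ran in the opposite order to their levels per kilobase. They were 18.7% ± 1.97 for Atp5g1, 15% ± 2.01 for Atp5g2 and 12.3% ± 2.92 for Atp5g3. Without division by length, the levels of Atp5g1 and Atp5g2 changed places. The ratio of Atp5g1 exceeded that of Atp5g3 in each of the 8 libraries.

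Other gene lists were set beside these values. The mean of library medians was 11.74% ± 2.05 (SD over 8 libraries) for 77 cytosolic ribosomal protein genes, within 1 SD of the 11.86% ± 2.17 of the subunit genes. It was 14.65% ± 2.69 for 13 glycolysis genes and 17.27% ± 2.88 for 13 genes of the tricarboxylic acid cycle. It was 27.46% ± 4.07 for 68 mitochondrial ribosomal protein genes and 31.04% ± 3.63 for 27 assembly factors of the respiratory complexes, which are needed to build the complexes but are not part of them. The 9 regulators of respiratory gene expression with enough counts had 69.13% ± 6.35. In each library the subunit genes lay below the mitochondrial ribosomal proteins, the assembly factors and the regulators. The lists also differ in length. The median was 1046 bases for the subunit genes, 1049 for cytosolic and 1739.5 for mitochondrial ribosomal proteins, 1710 for assembly factors and 5246 for regulators. It was 2027 for glycolysis genes and 2636 for genes of the tricarboxylic acid cycle. These last lists were longer than the mitochondrial ribosomal proteins and the assembly factors and had lower ratios. The part of length in the differences between lists was not tested.

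**Figure D2:**
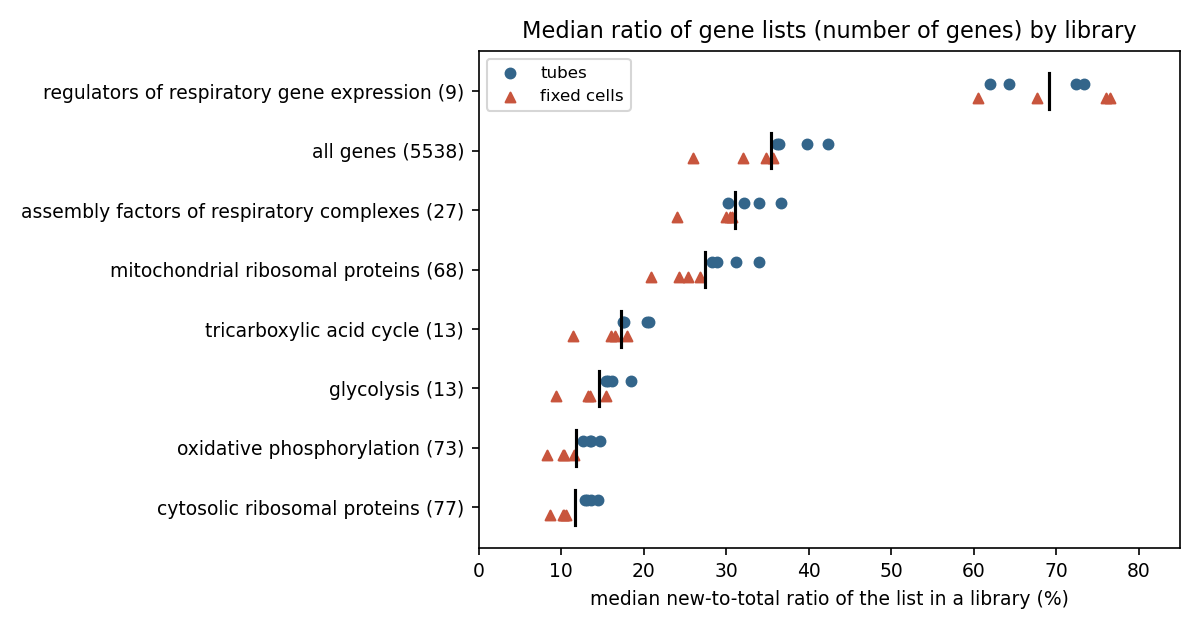
Median new-to-total ratio in percent (horizontal axis) of each gene list in each of the 8 labelled libraries; circles are tubes, triangles fixed cells, vertical bars the mean, and the number of genes is in brackets. Oxidative phosphorylation (11.86%) and cytosolic ribosomal proteins (11.74%) lie lowest, and regulators (69.13%) highest.

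Fixed cells were then compared with tubes without 4sU, which asks whether the procedure itself moved total RNA. Of the 76 genes tested, 59 were higher in fixed cells and 0 lower by edgeR's quasi-likelihood test (Benjamini-Hochberg adjusted p below 0.05 over all genes), while 16.2% of all 11080 genes tested were called higher and 15.2% lower. At an unadjusted p below 0.05, 65 of the 76 passed, and 4577 of all 11080 genes. The 76 genes had a median log2 difference of 0.73, against -0.01 over all genes. The summed share of all 80 genes was 1.52% and 1.53% of counts in the tube libraries without 4sU and 2.23% and 2.27% in those of fixed cells. Higher calls were made for 28 of 36 genes in complex I, 3 of 4 in complex II, 7 of 8 in complex III, 10 of 11 in complex IV and 11 of 17 in complex V, with median log2 differences of 0.72, 0.52, 0.71, 0.98 and 0.53.

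**Figure D3:**
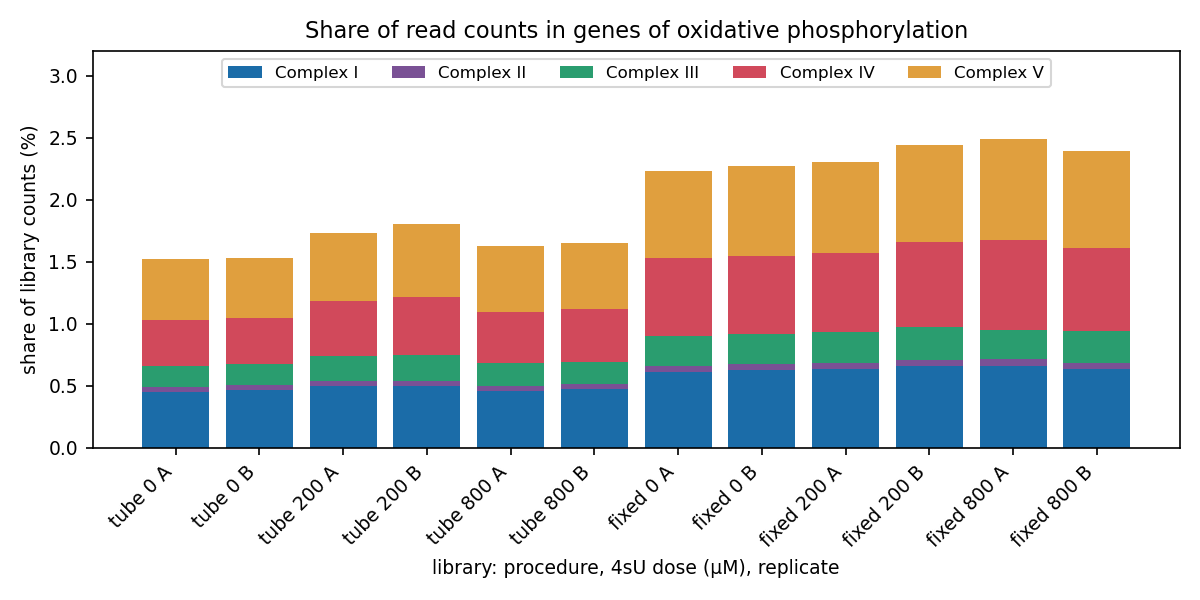
Share of a library's read counts, in percent (vertical axis), in the genes of each complex, stacked, for the 12 libraries. The 6 tube libraries sum to between 1.52% and 1.80%, and the 6 libraries of fixed cells to between 2.23% and 2.49%.

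The largest differences were in complexes V, III and I. Atp5f1, the b subunit of the peripheral stalk of ATP synthase (chr3:105942698-105960099), had 153.5 and 95.6 CPM in tubes and 360.7 and 377.3 in fixed cells. The log2 difference was 1.57 (SE 0.17, n = 2 libraries per group, edgeR adjusted p = 5.4e-06). Uqcrb, a small subunit near the ubiquinone site of complex III (chr13:66900617-66905378), had 52.0 and 50.6 CPM in tubes and 163.8 and 136.7 in fixed cells, a log2 difference of 1.55 (SE 0.15, n = 2 per group, edgeR adjusted p = 3.75e-06). Ndufb6, an accessory subunit of complex I (chr4:40270591-40279421), had 34.9 and 40.1 in tubes and 108.2 and 105.9 in fixed cells, a log2 difference of 1.51 (SE 0.16, n = 2 per group, edgeR adjusted p = 5.11e-06). In all 3 genes both fixed libraries lay far above both tube libraries.

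Ndufa6, whose promoter stretch is printed above, had 54.6 and 45.4 CPM in tubes and 121.2 and 132.4 in fixed cells, a log2 difference of 1.35 (SE 0.19). Ndufs4, an accessory subunit whose loss causes a Leigh-like disease in mice, rose by 1.33 (SE 0.15), and Atp5c1, the gamma subunit that forms the rotor axle, by 1.27 (SE 0.14). Ndufa1, an accessory subunit of complex I, rose by 1.25 (SE 0.16). Each of these 4 genes passed with n = 2 libraries per group, and the largest of their edgeR adjusted p-values was 4.6e-05, for Ndufa6. The widely expressed forms of complex IV subunits and Cox7a2l rose by 0.77 for Cox6a1, 0.90 for Cox7b, 0.96 for Cox4i1, 0.98 for Cox8a, 1.01 for Cox7a2, 1.02 for Cox6b1 and 1.23 for Cox7a2l, all called higher. Of the c subunit genes, Atp5g1 rose by 1.19, Atp5g3 by 1.05 and Atp5g2 by 0.86 on the log2 scale.

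The 17 genes that were not called spanned log2 differences from -0.30 to 0.60. The lowest was Uqcrc1, a core protein of complex III (chr9:108936633-108949623), with 183.8 and 151.3 CPM in tubes and 138.6 and 133.4 in fixed cells. Both tube values exceeded both fixed values, yet the difference of -0.30 (SE 0.18, n = 2 per group) did not pass (edgeR adjusted p = 0.226). Ndufb7, Ndufa10, Atp5sl and Ndufb10 also had values below 0, from -0.12 to -0.03, and none passed. Without regard to the test, the libraries did not overlap in 66 of the 76 genes with fixed cells higher and in 1 with fixed cells lower, against 33.7% and 34.0% of all genes.

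**Figure D4:**
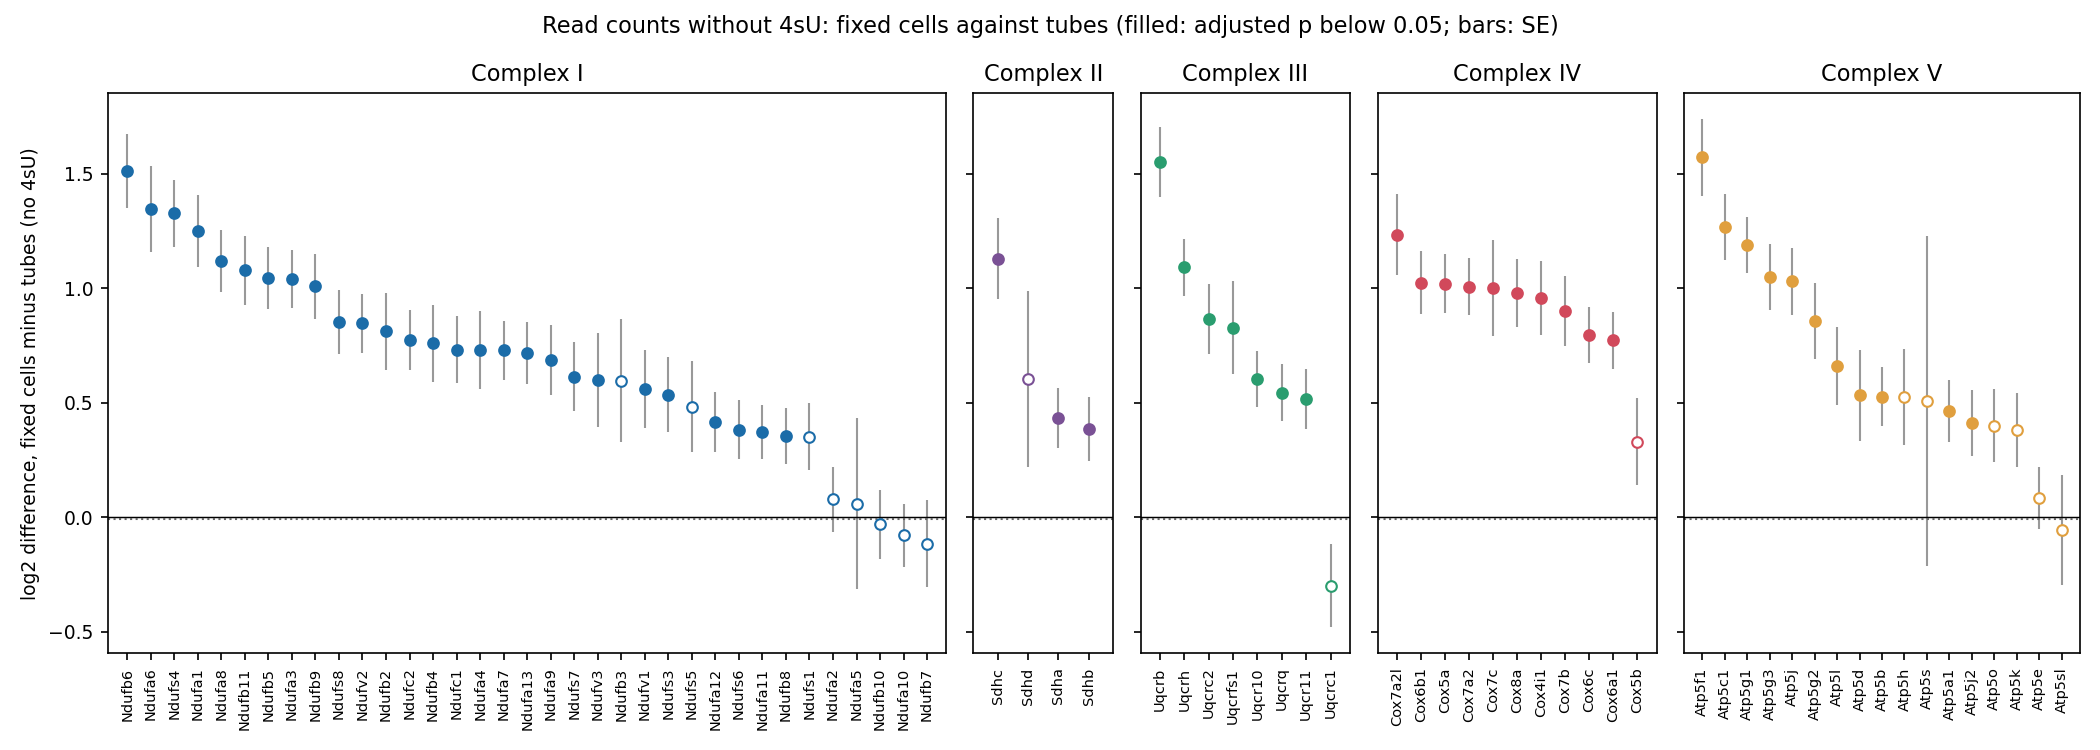
Log2 difference in read counts between fixed cells and tubes without 4sU (vertical axis) for the tested genes by complex, 1 gene not shown, with bars for the SE; filled points passed an adjusted p of 0.05 and open points did not, the solid line is 0 and the dotted line the all-gene median. The filled points all lie above 0, and Uqcrc1 is the lowest point at -0.30.

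Length moved with this comparison. Over all genes, Spearman's rho between the log2 difference and length was -0.416 (n = 11080 genes), and the median difference ran from 0.52 among the shortest 10% of genes to -0.51 among the longest 10%. Of the 76 genes, 45 were among the shortest 10%. There, 35 of the 45 were called higher, with a median of 0.77, while 43.7% of all genes of that length class were called higher. With a length trend removed in the fit, 32 of the 76 were called higher and 2 lower (Ndufa2 at -0.54 and Ndufb10 at -0.54), and their median was 0.35. Scaling the libraries on genes with the lowest ratios moved the median of all genes to -0.35. Under it, 38 of the 76 were called higher and 2 lower (Ndufa10 at -0.42 and Uqcrc1 at -0.64). The shares of all genes called with the length trend removed or under this scaling are not given here. These counts therefore have no background beside them. The subunit genes, whose ratios were low, were not kept out of that scaling set. Such scaling can itself shrink their differences, so its counts are no separate check.

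**Figure D5:**
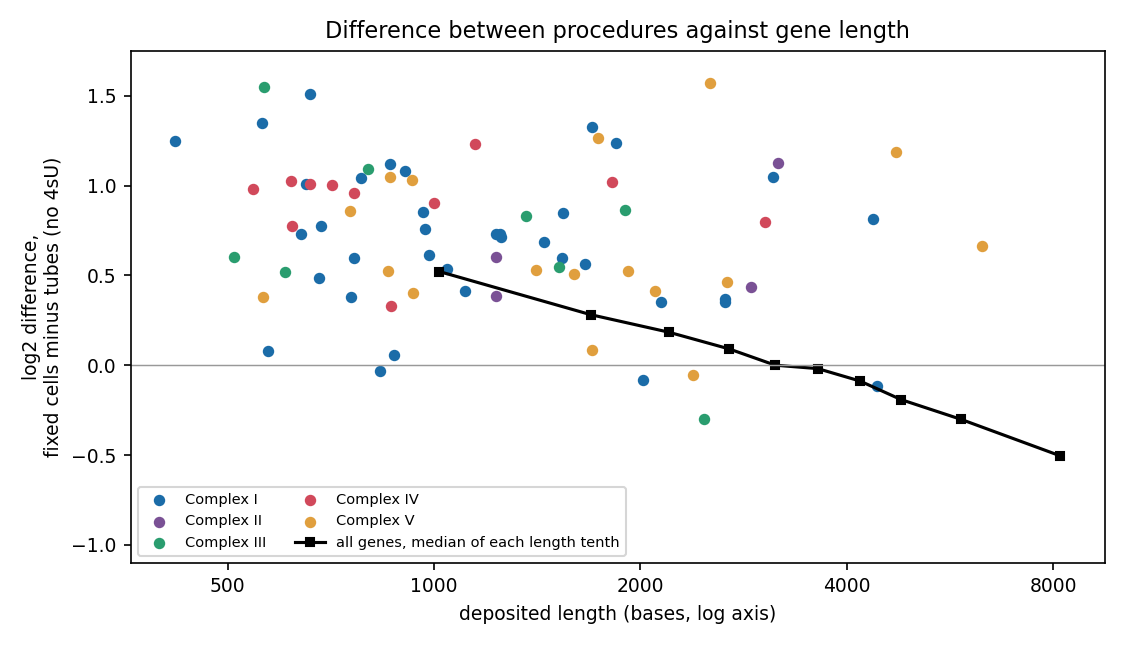
Log2 difference between fixed cells and tubes without 4sU (vertical axis) against deposited gene length in bases (logarithmic horizontal axis) for the 76 tested genes, coloured by complex; the line joins the medians of all genes in 10 equal classes of length. The line falls from 0.52 to -0.51, and most of the coloured points lie above it.

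Pathway neighbours were counted in the same comparison. Of 77 cytosolic ribosomal protein genes, 80.5% were called higher and 0 lower, with a median log2 difference of 0.87. Of 78 mitochondrial ribosomal protein genes, 51.3% were called higher and 1.28% lower, with a median of 0.47. Of 13 tricarboxylic acid cycle genes, 7 were higher and 0 lower, among them Suclg2 (1.19, SE 0.17), a subunit of succinate-CoA ligase, and Idh3b (0.87, SE 0.16), a subunit of isocitrate dehydrogenase. Of 20 electron carriers and subunits outside the symbol pattern, 10 were higher and 0 lower, among them Etfdh (1.86, SE 0.29), which hands electrons from fatty acid oxidation to ubiquinone, and Cyc1 (0.65, SE 0.16), the cytochrome c1 of complex III. Of 50 assembly factors, 13 were higher and 1 lower. Atpif1, the inhibitor of ATP synthase, rose by 1.02 (SE 0.12) and Ttc19, a complex III factor, fell by 0.88 (SE 0.15). Of 19 regulators, Tfam, which packages mitochondrial DNA, rose by 0.53 (SE 0.19), and Polg, the mitochondrial DNA polymerase, Ppargc1b and Pprc1, coactivators of the PGC-1 family, fell by 0.65 (SE 0.19), 1.34 (SE 0.34) and 1.35 (SE 0.23). Of 17 glycolysis genes, 3 were higher and 3 lower, with a median of 0.09. The 12 fibroblast markers also shifted, with 2 called higher (Vim at 0.73 and S100a4 at 0.62) and 6 lower (among them Col1a1 at -1.13 and Fn1 at -0.98) and a median of -0.41. Their part in the result was not tested. All of these calls are by edgeR at an adjusted p below 0.05 with n = 2 libraries per group.

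The effect of 4sU on total RNA was asked next, with each dose set against no 4sU in the same procedure. The doses share their control libraries, so the counts at 200 and 800 µM are not independent. In tubes at 200 µM, 10 of the 76 genes were higher and 0 lower by edgeR, against 2.36% of all genes called higher and 1.39% lower, and their median log2 difference was 0.32 (0.03 over all genes). These were Ndufb6, Atp5o, Ndufa8, Cox6a1, Atp5c1, Ndufb9, Cox7a2, Uqcr10, Uqcrh and Ndufa3, with log2 differences from 0.48 to 0.69 and n = 2 libraries per group. Cytosolic ribosomal protein genes moved alike, with 10 of 77 called higher and 0 lower and a median of 0.37. Among the shortest 10% of all genes, 5.96% were called higher, with a median of 0.19. Ndufb6 rose from 34.9 and 40.1 CPM to 57.0 and 64.3, a log2 difference of 0.69 (SE 0.16, edgeR adjusted p = 0.0277, n = 2 per group). Cox6a1 rose from 374.4 and 343.4 to 531.5 and 528.1, a log2 difference of 0.56 (SE 0.13, edgeR adjusted p = 0.0217, n = 2 per group). Atp5o rose from 338.3 and 398.9 to 524.8 and 601.3, by 0.61 on the log2 scale (SE 0.16).

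The calls of the 10 subunit genes rested on all 4 libraries. Without tube 200 µM library A 3 genes were called, which were Ndufb6 and Atp5c1 of these 10 and Cox4i1. Without tube 200 µM library B there were 0 calls, and without either tube library of no 4sU there was 1, which was Atp5f1 higher without library A and Sdhd lower without library B. With a length trend removed in the fit, 0 of the 76 genes were called.

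In tubes at 800 µM, Ndufb6 alone was called, at 64.3 and 55.8 CPM (log2 difference 0.68, SE 0.16, edgeR adjusted p = 0.0364, n = 2 per group), against 0.912% of all genes called higher and 0.957% lower. The call was lost in each of the 4 fits that left out a library of these groups, while the log2 difference stayed between 0.50 and 0.79 over all 10 alternatives run. The median of the 76 genes was 0.20 on the log2 scale.

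In fixed cells at 200 µM, edgeR called 0 of the 76 genes, and DESeq2 also called 0. Over all genes, edgeR called 0.244% higher and 0.569% lower. At an unadjusted p below 0.05, 5 of the 76 passed, and 1397 of all 11080 genes. The smallest p-values belonged to Sdhd, a membrane anchor of complex II, and Cox7b, with log2 differences of 1.14 (SE 0.34, edgeR adjusted p = 0.153, n = 2 per group) and 0.39 (SE 0.15, edgeR adjusted p = 0.272, n = 2 per group). At 800 µM, Cox7b was the single gene called, against 0.776% of all genes called higher and 1.89% lower. Its level went from 254.5 and 240.4 CPM to 485.2 in library A and 327.7 in library B, a log2 difference of 0.72 (SE 0.15, edgeR adjusted p = 0.0165, n = 2 per group). Without library A, which stood apart, the difference was 0.46 (edgeR adjusted p = 0.0716) and 0 genes were called. Without library B it was 0.97, and the number of genes called depended on which library was left out. Leaving out either fixed library without 4sU also left 0 calls.

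Counted without a test, both libraries at 200 µM in tubes lay above both without 4sU in 55 of the 76 genes and below them in 3, against 28.7% and 21.6% of all genes. In tubes at 800 µM these counts were 50 and 2 (27.8% and 22% of all genes), in fixed cells at 200 µM 44 and 0 (24.1% and 25.1%), and in fixed cells at 800 µM 53 and 0 (24.2% and 25.1%). The median log2 difference of the 76 genes in fixed cells was 0.16 at 200 µM and 0.25 at 800 µM, against 0.00 over all genes at each dose. For the 77 cytosolic ribosomal protein genes it was 0.17 and 0.39.

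Whether 4sU acted differently in the 2 procedures was tested as a difference of effects. At 200 µM edgeR called 0 of the 76 genes (8 at an unadjusted p below 0.05) and 0 of 11080 genes, and at 800 µM 0 of the 76 (3 unadjusted) and 0 of 11080. Unadjusted, 993 of the 11080 genes passed at 200 µM and 654 at 800 µM. DESeq2 also called 0 of the 76 at each dose. The background of calls in these comparisons was therefore 0%. Sdhd had the smallest p at 200 µM, with a log2 difference of effects of 2.57 (SE 0.57, edgeR adjusted p = 0.212). Its libraries spread widely, at 28.6 and 8.13 CPM in tubes without 4sU, 5.81 and 7.35 at 200 µM, 36.1 and 22.1 at 800 µM, and 22.9 and 31.4, 65.4 and 54.4, and 50.9 and 30.0 at the same doses in fixed cells. Ndufb6 followed at -0.59 (SE 0.22, edgeR adjusted p = 0.463). At 800 µM the smallest p-values were those of Cox7b, 0.57 (SE 0.22, edgeR adjusted p = 0.822), and Ndufb6, -0.52 (SE 0.22, edgeR adjusted p = 0.822). Single libraries decided whether any gene was called, as Sdhd passed at 200 µM without tube library B of no 4sU (3.24), and Cox7b, Ndufa5 and Ndufb3 passed at 800 µM without fixed 800 µM library B (0.83, 1.47 and 1.16). Without fixed 800 µM library A 0 genes passed, and these values were 0.35, 0.02 and 0.02, with -0.48 for Ndufb6.

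Last, the ratio was compared between procedures and doses with limma on the log2 odds of the ratio. No comparison called any of the 73 genes or any of the 5538 genes at an adjusted p below 0.05, so the background was 0%. At an unadjusted p below 0.05, 12 of the 73 genes passed for fixed cells against tubes at 200 µM, 18 at 800 µM, 6 for 800 against 200 µM in tubes, 7 for the same step in fixed cells, and 3 for the difference between these steps. Over all 5538 genes, 1040, 1129, 465, 925 and 253 passed in the same order of comparisons. The median of the 73 genes was -0.44 log2 odds at 200 µM and -0.44 at 800 µM for fixed cells against tubes, and the all-gene medians were -0.27 and -0.44. Both fixed libraries lay below both tube libraries in 45 of 73 genes at 200 µM and 47 at 800 µM, against 42.9% and 48.6% of all genes. The reverse held in 3 and 0 of the 73 genes, against 12.2% and 4.59% of all genes. For the dose steps, the median was -0.18 in tubes and -0.23 in fixed cells, against -0.29 and -0.46 over all genes.

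Atp5l had the smallest p at 200 µM. Its ratio was 16.65% and 19.69% in tubes and 9.70% and 8.30% in fixed cells, a difference of -1.17 log2 odds (SE 0.25, limma adjusted p = 0.106, n = 2 per group). Uqcrfs1, whose 8 values are given above, followed at -0.90 (SE 0.24, limma adjusted p = 0.137). At 800 µM the smallest p was that of Ndufb4, an accessory subunit of complex I, with 22.70% and 16.84% in tubes and 6.20% and 8.01% in fixed cells, a difference of -1.69 (SE 0.31, limma adjusted p = 0.0905, n = 2 per group), followed by Ndufs1 at -0.90 (SE 0.23, limma adjusted p = 0.122). In these genes the tube and fixed libraries did not overlap. With a count of at least 300 required in each labelled library, Atp5l passed at 200 µM, and Atp5l, Ndufb11, Ndufs1 and Ndufv1, all lower in fixed cells, passed at 800 µM. When 1 fixed 800 µM library was left out, whether any gene passed at 800 µM depended on which one was kept. Without library A, the median of the 73 genes was -0.27, and the differences were -1.49 for Ndufb4 and -0.86 for Ndufs1.

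Between doses, the smallest p-values were those of other genes. In tubes Ndufs8, a core subunit with iron-sulfur clusters, went from 13.30% and 8.13% at 200 µM to 19.37% and 20.43% at 800 µM (1.09 log2 odds, SE 0.37, limma adjusted p = 0.569, n = 2 per group), and Ndufa6 changed by -0.74 (SE 0.29, limma adjusted p = 0.569). In fixed cells Sdhc went from 9.77% and 15.51% to 4.49% and 5.81% (-1.39, SE 0.40, limma adjusted p = 0.252, n = 2 per group), and Ndufb6 from 13.06% and 9.52% to 3.85% and 6.25% (-1.28, SE 0.52, limma adjusted p = 0.286, n = 2 per group). The same genes had the smallest p for the difference between the steps, at -2.21 for Ndufb6 (SE 0.73) and -1.56 for Sdhc (SE 0.57), each with a limma adjusted p of 0.991. In tubes, 31 of the 73 genes had both 800 µM values below both 200 µM values and 6 had the reverse, against 44.6% and 6.21% of all genes. In fixed cells 28 of the 73 had both 800 µM values below both 200 µM values, against 47.3% of all genes, and 0 had the reverse, against 2.24%. Whether any gene passed for the dose step in fixed cells likewise depended on which fixed 800 µM library was left out. Without library A, that dose step was -1.19 for Sdhc and -0.92 for Ndufb6.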

How the data were processed

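SLAM-seq libraries of NIH-3T3 cells were analysed from 1 deposited table of 15217 genes. The deposited read counts were taken to be expected counts (counts that need not be whole), since between 16.2% and 22.0% of a library's values were not whole. How reads were divided is not known here. They were rounded for testing. Its new-to-total ratio is a fraction from 0 to 1, deposited for the 8 libraries with 4sU as a maximum a posteriori value, a mean and quantiles, per the file headers, with no unlabelled background. The deposited alpha and beta columns are scores that were not tested. The submitters' processing notes list the tools STAR 2.7.10b, Bowtie2 2.3.0 and cutadapt, with no roles. Build, annotation, strand use and the ratio's tool were not given in the sources used here. Coordinates are those of GENCODE M21 (GRCm38) by gene ID, found for all 80 genes.

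For counts, edgeR 4.0.16 (R 4.3.3) was used with its quasi-likelihood test, TMM scaling and filterByExpr (minimum count 10, minimum total 15, 11080 genes kept) in 1 fit of 12 libraries, with 7 comparisons. CPM values are on the TMM scale. The ratio was tested with limma 3.58.1 (trend) on log2 odds, held within 0.005 and 0.995, at the 5538 genes whose count reached 100 in every labelled library, with 5 comparisons. P-values were Benjamini-Hochberg adjusted over all genes of a comparison at 0.05. Scripts were tested on simulated data. DESeq2 1.42.0, other scalings and filters, a length offset, a replicate block and leaving out each library were alternatives. No replicate pair was the same library deposited again (chi-square per degree of freedom 3.17 to 21.9). Precision is set by 2 libraries per group.

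The members and gene lists were chosen with earlier results of these data known. Named members are those past the threshold (up to 8 per direction and comparison, or the 2 with the smallest p where none passed), the highest and lowest of each complex by ratio and level, alternative forms of subunits, and genes that missed the count filter. A gene that the rule takes is not reported here. Of the other lists, up to 4 genes past the threshold were named. Genes named beyond this, such as Uqcrc1 and those in calls of single alternatives, were chosen after their values were seen.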

Additional observations from a re-analysis of the deposited data

How the results depend on the processing

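For fixed cells against tubes without 4sU (59 of 76 genes called), removing a length trend gave 34 calls. Leaving out 1 library gave 44 to 50, and the 8 genes with the largest differences passed under each of the 10 alternatives run. The numbers of all genes called under the alternatives of this section are not given here, so its counts have no background beside them. The calls with 4sU depended on the processing. With no filter on low counts, the number called was 17 in tubes at 200 µM, 2 in tubes at 800 µM, 1 in fixed cells at 200 µM (Sdhd), 13 in fixed cells at 800 µM, and 1 for each difference of effects (Sdhd at 200 µM and Ndufa5 at 800 µM). Scaling on the genes with the lowest ratios gave 1 call in tubes at 200 µM (Sdhd, lower) and 0 at 800 µM. It moved the all-gene median by -0.16, -0.14, -0.11 and -0.18 log2 units in tubes and fixed cells at 200 and 800 µM. The subunit genes were not kept out of that scaling set, so it is no separate check. Removing a length trend gave 0 in tubes at either dose. In fixed cells at 800 µM, DESeq2 called 9 and edgeR with RLE scaling 2 (Cox7b and Ndufb4). Leaving out 1 library gave 0 to 3 calls in tubes at 200 µM, 0 to 2 in tubes at 800 µM, 0 to 31 in fixed cells at 800 µM, 0 to 1 for the difference of effects at 200 µM and 0 to 3 at 800 µM. For the ratio, it gave 0 to 13 calls for fixed cells against tubes at 800 µM and 0 to 4 for the dose step in fixed cells, the highest each time without fixed 800 µM library B. A count of at least 300 gave 1 call at 200 µM, 4 at 800 µM, and 10.53% in place of 12.04% for complex III. The cause of these changes was not tested. A replicate block gave 58 calls for fixed cells against tubes and 8 in tubes at 200 µM, and changed no other count of calls. The labels do not say that A and B pair libraries. The correlation of A and B deviations between groups ran from -0.104 to 0.095 over all genes and from -0.687 to 0.729 over the 76 genes.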
